A study of Mus musculus with 2 samples.

Results

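Messenger RNA of 9 chemokine receptor genes was examined in CD4+ T cells of DEREG mice: Ccr2, Ccr4, Ccr6, Ccr8, Ccr9, Ccr10, Cxcr3, Cxcr4 and Cxcr6. The genes were listed by symbol, and every probe set annotated to exactly 1 of these symbols was taken, which gave 17 probe sets among the 45101 of the array and 9 genes of the 18193 with such a probe set. The question was which receptors for tissue entry are detected in each population and how the populations differ.

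Both groups came from DEREG mice, a strain in which the Foxp3 promoter drives green fluorescent protein (GFP), so the sort marks cells by activity of that promoter. After negative selection for CD4+ T cells, a flow sort gave GFP-positive, Foxp3-positive cells and GFP-negative, Foxp3-negative cells, and each population was hybridised to 1 Affymetrix mouse genome array, on which a transcript is read by 1 or more sets of short probes. There are no replicates, so no test was possible, and each difference below is between these 2 arrays. The sources used here do not give the organ, the treatment, or the age, sex, number and pooling of the mice.

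Chemokine receptors are G protein-coupled receptors that guide leukocytes along gradients of chemokines, small secreted proteins named CCL or CXCL. On a rolling T cell they trigger integrin adhesion through the G protein Gi and the GTPases Rap1 and Rac, and the set of receptors a T cell carries helps to set which tissue it enters. Regulatory T cells, which depend on the transcription factor Foxp3, share many of these receptors with helper T cells and are known to use CCR6 at mucosal sites, CXCR3 in type 1 inflammation and CCR4 and CCR8 in skin.

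Ccr6 was the 1 listed receptor with a higher signal in GFP-positive cells among those above background on both arrays, and the 4 others, Cxcr3, Cxcr4, Cxcr6 and Ccr2, had lower signals there. The start regions of the receptors with the largest difference in each direction, Ccr6 and Cxcr3, are shown here. The sequences are from RefSeq, build GRCm38.p6, and run 5′ to 3′ on the gene's strand from 250 bases before to 50 bases after a transcript start. The table gives 2 starts for Ccr6. Capitals mark matches, on either strand, to the short motifs described after the sequences.
Ccr6 first start, chr17:8235793-8236092, plus strand: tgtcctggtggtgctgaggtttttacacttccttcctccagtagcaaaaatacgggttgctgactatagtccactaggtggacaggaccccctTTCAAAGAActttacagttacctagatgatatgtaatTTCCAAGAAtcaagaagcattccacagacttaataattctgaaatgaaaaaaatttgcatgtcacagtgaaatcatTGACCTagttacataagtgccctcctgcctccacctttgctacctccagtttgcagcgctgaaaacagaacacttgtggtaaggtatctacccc
Ccr6 second start, chr17:8242276-8242575, plus strand: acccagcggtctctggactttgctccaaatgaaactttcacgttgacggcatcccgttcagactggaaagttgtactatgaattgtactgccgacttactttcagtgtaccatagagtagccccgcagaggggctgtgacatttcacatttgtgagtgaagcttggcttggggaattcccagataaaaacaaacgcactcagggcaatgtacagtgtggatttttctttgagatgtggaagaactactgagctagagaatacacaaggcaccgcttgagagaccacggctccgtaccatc
Cxcr3, chrX:101734098-101734397, minus strand: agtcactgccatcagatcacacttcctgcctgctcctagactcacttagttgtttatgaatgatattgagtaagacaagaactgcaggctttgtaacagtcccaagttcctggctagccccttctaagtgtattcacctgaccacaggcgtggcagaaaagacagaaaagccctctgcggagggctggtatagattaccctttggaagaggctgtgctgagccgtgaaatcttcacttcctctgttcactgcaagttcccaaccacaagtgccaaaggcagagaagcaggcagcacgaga

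A promoter entry was found for 8 of the 9 receptors, 9 windows in all. In the first Ccr6 window, the STAT motif TTCNNNGAA, which reads the same on both strands, matched from 157 and from 120 bases before the start, and the ROR core motif AGGTCA matched on the opposite strand from 44 bases before it. The 2 STAT matches and the ROR match do not overlap each other. Among all 32851 windows of this length, 8.30% held the STAT motif and 16.3% the ROR core motif, and among the 9 receptor windows each was found in 1. The forkhead motif TGTTTAC was found in 0 of the 9 receptor windows and 3.65% of all windows, and the T-box motif AGGTGT in 0 of 9 and 13.7%. The NFAT motif GGAAAA was found in the Ccr2 window and 23.4% of all windows, and the AP-1 motif TGANTCA in the Ccr4 window and 7.81% of all. The second Ccr6 window and the Cxcr3 window held none of the 6 motifs. A match shows these letters in this window and does not show that a factor binds there.

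Values are MAS5 signals, a linear intensity per probe set. Because the table holds no detection calls, a signal floor of 61.84 was set at the 90th percentile of 106 probe sets of genes restricted to other tissues, and signals below it were raised to it before differences were taken. A difference is the log2 signal in GFP-positive cells less that in GFP-negative cells, a gene is represented by its brightest probe set, and a 2-fold difference was the threshold for counting a gene. The signal of one probe set cannot be compared with that of another, so receptors are not ranked by level. In sorted populations, fewer cells that express a gene and less RNA per cell cannot be told apart.

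Of the 17 receptor probe sets, 8 were above the floor in GFP-positive cells and 9 in GFP-negative cells. Of all 45101 probe sets, 42.0% were above it in GFP-positive cells and 39.2% in GFP-negative cells. By gene, Ccr6, Cxcr3, Cxcr6, Ccr2 and Cxcr4 were above it on both arrays, Ccr9 on the GFP-negative array only, and Ccr4, Ccr8 and Ccr10 on neither. Over all genes, 57% were above the floor on at least 1 array. Among the 8 probe sets above the floor on both arrays, 1 was higher and 7 were lower in GFP-positive cells. Of the 6 receptors above the floor on at least 1 array, 1 was at least 2-fold higher and 0 were at least 2-fold lower, beside 1.74% of the 10376 genes above the floor that were at least 2-fold higher and 1.73% that were at least 2-fold lower, 3.47% together. The median difference of these 6 receptors was -0.32 log2, against -0.01 over all 10376 genes, and 5 of the 6 were lower by any amount, as were 51.2% of all genes. Ccr9 is among the 5, but it passed the floor in GFP-negative cells only and so could only count as lower. Among the receptors above the floor on both arrays, Ccr6 was higher and Cxcr3, Cxcr6, Ccr2 and Cxcr4 were lower.

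**Figure D1:**
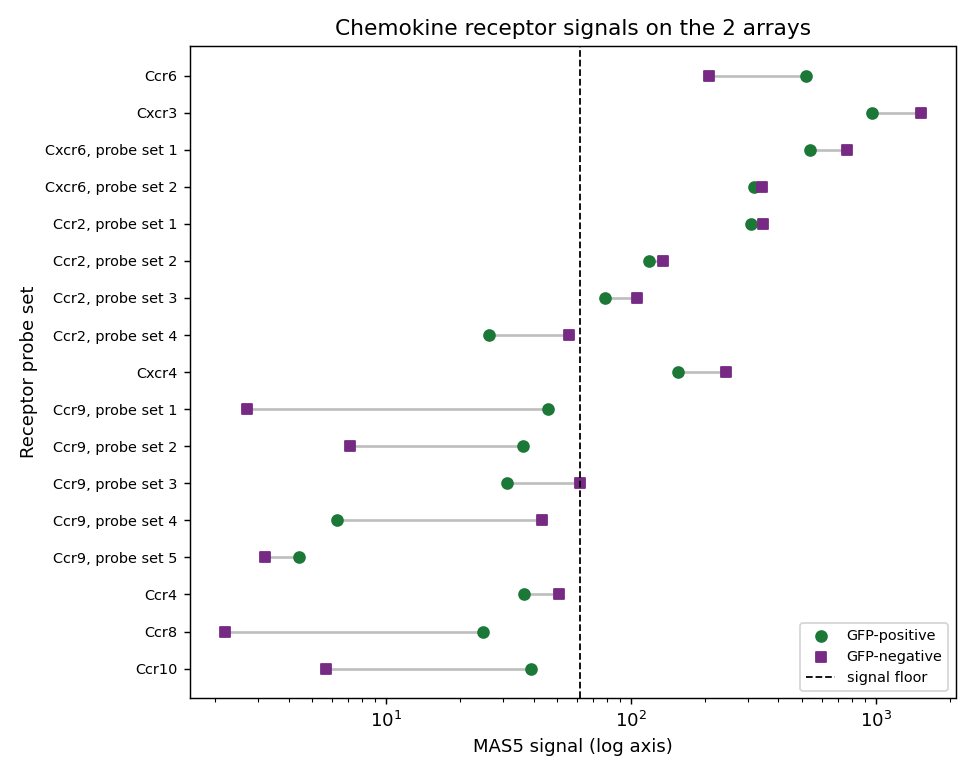
MAS5 signal on a log axis for each of the 17 receptor probe sets, with circles for GFP-positive and squares for GFP-negative cells, 1 array each, and the floor of 61.84 as a dashed line; probe sets of 1 gene are numbered by their GFP-positive signal. The Ccr6 circle lies right of its square, whereas for Cxcr3, Cxcr4, Cxcr6 and Ccr2 every circle lies left, and Ccr4, Ccr8, Ccr10 and all but 1 of the Ccr9 signals lie below the floor.

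Ccr6 encodes the receptor for CCL20, made by mucosal epithelium, and is known on Th17 cells, on a subset of regulatory T cells and on B cells. Its signal was 516.4 in GFP-positive cells and 209 in GFP-negative cells, which is 2.47-fold higher (1.30 log2). Both values are above the floor, and 69 of the 10376 genes (0.665%) differed by at least as much in that direction. Of the 3768 genes whose mean signal lay within 2-fold of that of Ccr6, 0.557% did, a share computed after the values were seen. As a scale for technical scatter, probe sets of the same gene differed from each other with a standard deviation of 0.40 log2 (8156 probe sets of 3204 genes, all with both signals above the floor). That scatter leaves out any variation between mice, sorting runs or arrays. Ccr6 has a single probe set of the kind that recognises several transcripts of the gene, so no second measurement of it was available on the arrays.

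Because Ccr6 is also a B cell gene, B cell markers are given beside it. Of 7 such markers with a probe set, 3 were above the floor. Cd79b had signals of 221.9 in GFP-positive cells and 70.8 in GFP-negative cells, 3.13-fold higher in GFP-positive cells. Cd22 had 98.3 in GFP-positive cells and 235.1 in GFP-negative cells, 2.39-fold lower. Ighm had 1881 in GFP-positive cells and 4139 in GFP-negative cells, 2.20-fold lower. All 3 passed 2-fold, as did 3.47% of all genes above the floor. With the floor doubled, Cd79b was at 0.84 log2 and Cd22 at -0.93 log2, both under 2-fold. The markers Cd79a, Ms4a1, Pax5 and Blk were below the floor on both arrays, and 0 markers were listed at 0. The summed signal of the 7 markers was 2347 in GFP-positive cells and 4609.5 in GFP-negative cells, most of it from Ighm, whose probe sets went both ways. The part of B cell RNA in the Ccr6 signal was not tested.

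Cxcr3 and Cxcr6 are receptors of type 1 effector cells. Cxcr3, which binds CXCL9, CXCL10 and CXCL11 and brings Th1 cells and T-bet-positive regulatory T cells to inflamed tissue, had a signal of 963.1 in GFP-positive cells and 1525 in GFP-negative cells, a 1.58-fold lower value or -0.66 log2. Of all genes, 5.79% were at least as much lower, and of the 1902 genes with a mean signal within 2-fold of it 2.31% were. The difference was under 2-fold and larger than the 0.40 log2 scatter between probe sets.

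Cxcr6, the receptor for the membrane-bound chemokine CXCL16 and a marker of tissue-resident T cells, was measured by 2 probe sets. The brighter gave 539.6 in GFP-positive cells and 759.5 in GFP-negative cells, 1.41-fold lower or -0.49 log2. The other gave 319.2 in GFP-positive cells and 343.3 in GFP-negative cells, or -0.11 log2. Both were lower in GFP-positive cells, and the size of the difference depended on the probe set. For the brighter, 11.2% of all genes and 9.80% of the 2948 genes of similar mean signal were at least as much lower.

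Ccr2, the receptor for CCL2 on monocytes and effector T cells, had 3 of its 4 probe sets above the floor on both arrays. Their signals were 309.9, 119 and 78.1 in GFP-positive cells, against 344.5, 134.6 and 105.4 in GFP-negative cells. The differences were -0.15, -0.18 and -0.43 log2, all lower in GFP-positive cells, the first 2 of them below the scatter between probe sets. For the brightest, 34.3% of all genes and 38.6% of the 3771 genes of similar mean signal were at least as much lower. The remaining probe set was under the floor on both arrays (26.2 in GFP-positive cells and 55.9 in GFP-negative cells). Of 11 myeloid and dendritic cell markers, 4 were above the floor (Csf1r, Adgre1, Cst3 and Itgam, at 0.07 to 0.44 log2). Csf1r and Itgam passed it in GFP-positive cells only, which fixed their direction. Lyz2, Cd14, S100a8 and S100a9 were below the floor on both arrays. The summed signals of the 11 markers were 1013 in GFP-positive cells and 1006 in GFP-negative cells. Most of each sum came from Cst3, at 681.8 in GFP-positive cells and 639.4 in GFP-negative cells.

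Cxcr4, the receptor for CXCL12, retains lymphocytes in bone marrow and guides them in lymphoid organs. Its only probe set gave 155.1 in GFP-positive cells and 244.4 in GFP-negative cells, 1.58-fold lower or -0.66 log2. A value at least as low was found for 6.01% of all genes and for 8.34% of the 4017 with a mean signal within 2-fold of it.

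Because Ccr6 and the other receptors lay on opposite sides of 0, their differences can be set against each other in a form that does not depend on a scaling factor between arrays. The GFP-positive to GFP-negative ratio of Ccr6 was 3.91 times that of Cxcr3, 3.89 times that of Cxcr4, 3.48 times that of Cxcr6 and 2.75 times that of Ccr2. This shows unequal values within the receptor family on these arrays and carries no replicate error.

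**Figure D2:**
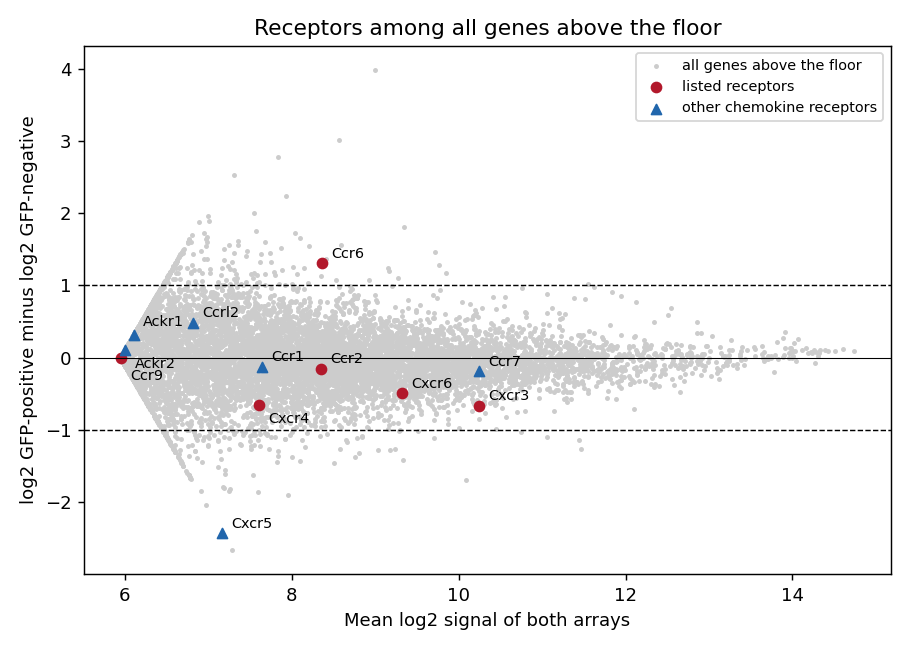
The log2 GFP-positive minus GFP-negative difference (vertical axis) against the mean log2 signal of both arrays (horizontal axis) for the 10376 genes above the floor in grey, with the 6 listed receptors above it as circles and the other chemokine receptors as triangles; dashed lines mark 2-fold. Ccr6 at 1.30 and Cxcr5 at -2.43 lie outside the dashed lines, and Cxcr3 at -0.66 lies at the lower edge of the genes of its signal.

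Ccr9, Ccr4, Ccr8 and Ccr10 were at or below the floor. Ccr9, the receptor for CCL25 that directs T cells to the small intestine, had 5 probe sets, of which 1 reached 62.1 in GFP-negative cells, just above the floor, with 31.1 in GFP-positive cells. The other 4 Ccr9 probe sets were at most 45.9 in GFP-positive cells and 43.5 in GFP-negative cells, and their directions differed. Ccr4, a receptor for CCL17 and CCL22, had signals of 36.4 in GFP-positive cells and 50.8 in GFP-negative cells.

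Ccr8, a receptor for CCL1 known on regulatory T cells of skin and tumours, had signals of 24.9 in GFP-positive cells and 2.2 in GFP-negative cells. Ccr10, the receptor for CCL27 and CCL28, had 38.9 in GFP-positive cells and 5.7 in GFP-negative cells. Both are listed higher in GFP-positive cells but lie where no fold can be given. The tissue-restricted genes moved the same way at this level: the median signal of the 61 measured was 31.7 on the array of GFP-positive cells and 12.4 on that of GFP-negative cells. The part of this background in the Ccr8 and Ccr10 values was not tested, and a signal below the floor does not show that the gene is silent.

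Other members of the chemokine receptor family were looked at next. Of 13 with a probe set, 6 were above the floor, 3 of them higher and 3 lower. Their median was -0.01 log2, which was 0.47 with the floor halved. Cxcr5, Ackr1 and Ackr2 were above the floor on 1 array only, so passing it fixed their direction. Among those above it on both arrays, Ccr1 and Ccr7 were lower and Ccrl2 was higher. Cxcr5, which brings T cells to B cell follicles, had 29.9 in GFP-positive cells and 333.1 in GFP-negative cells, at least 5.39-fold lower, and was the 1 member past 2-fold. Ccr7, which takes naive T cells into lymph nodes, had 1141 in GFP-positive cells and 1296 in GFP-negative cells (-0.18 log2), and the inflammatory receptor gene Ccr1 had 191.4 in GFP-positive cells and 208.6 in GFP-negative cells (-0.12 log2). Ccrl2, an atypical receptor gene, had 132.9 in GFP-positive cells and 95.1 in GFP-negative cells (0.48 log2). The atypical receptor genes Ackr1 and Ackr2, which act as chemokine interceptors and scavengers, were above the floor in GFP-positive cells only, at 76.8 and 66.8, against 55.4 and 45.2 in GFP-negative cells.

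Of the 9 listed receptors, 5 lie on chromosome 9. In the RefSeq GRCm38.p6 order of protein-coding genes, Cxcr6, Xcr1, Ccr1, Ccr1l1, Ccr3 and Ccr2 follow each other without interruption, with Ccr9 close to Cxcr6. Within this run Cxcr6, Ccr1 and Ccr2 were above the floor on both arrays, while Xcr1 (25.5 in GFP-positive cells and 7.4 in GFP-negative cells), Ccr1l1 (56.2 in GFP-positive cells and 4.6 in GFP-negative cells) and Ccr3 (11.7 in GFP-positive cells and 5.5 in GFP-negative cells) were below it on both. Signals of direct neighbours thus differed in detection in both populations. Ccr6, on chromosome 17, and Cxcr3, on the X chromosome, lie outside this cluster.

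By their brightest probe set, 11 of 16 ligands of the listed receptors were below the floor in these T cells. Over all genes, 57% were above the floor on at least 1 array. A second probe set of Ccl25, the CCR9 ligand gene, was above it in GFP-positive cells only (89.2 in GFP-positive cells and 11.9 in GFP-negative cells). Of the 5 ligands above it, 4 were higher and 1 lower in GFP-positive cells, with a median of 0.31 log2, which was -0.22 with the floor halved. The 4 higher ones, Ccl17, Ccl27a, Cxcl9 and Cxcl10, were above the floor in GFP-positive cells only, so passing it fixed their direction. Ccl1 was the only ligand above it on both arrays. Cxcl10, a ligand of CXCR3, was the 1 ligand past 2-fold, with 163.2 in GFP-positive cells and 50.4 in GFP-negative cells, at least 2.64-fold higher. With the floor doubled its difference was 0.40 log2 and under 2-fold. Ccl1, which encodes a ligand of CCR8, had 343 in GFP-positive cells and 666.1 in GFP-negative cells, 1.94-fold lower. Ccl17 and Ccl27a were above the floor in GFP-positive cells only (78.7 and 76.8, against 42.8 and 43.8 in GFP-negative cells). The CCR6 ligand gene Ccl20 was below it, at 7.5 in GFP-positive cells and 14.2 in GFP-negative cells. Of other chemokines made by T cells, 3 of 6 were above the floor, and the median was -0.19 log2, which was 0.16 with the floor halved. Ccl5 had 323.9 in GFP-positive cells and 560.5 in GFP-negative cells, 1.73-fold lower, Ccl3 had 84.6 in GFP-positive cells and 65.4 in GFP-negative cells, and Xcl1 was above the floor in GFP-negative cells only (12.4 in GFP-positive cells and 70.5 in GFP-negative cells).

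Genes that carry the receptor signal were all above the floor, and none passed 2-fold. The share over all genes was 57% above the floor on at least 1 array, with 3.47% of those past 2-fold. At that share, a list of this size would hold few genes past 2-fold. Of 28 measured genes, 22 were lower and 6 higher in GFP-positive cells, with a median of -0.19 log2, against 51.2% of all genes that were lower. That share takes in genes above the floor on 1 array only, whereas these 28 were above it on both. For all genes above the floor on both arrays, the median was -0.04 log2. After quantile normalization 19 were lower and 9 higher, and with probe sets averaged 16 of 26 were lower and 10 higher. The largest differences were those of Tln1, which encodes the integrin activator talin (637 in GFP-positive cells and 987.8 in GFP-negative cells, -0.63 log2), of the Rap1 exchange factor gene Rasgrp2 (191.7 in GFP-positive cells and 274.8 in GFP-negative cells, -0.52 log2), of Rap1a itself (2731 in GFP-positive cells and 2026 in GFP-negative cells, 0.43 log2) and of the Rac regulator gene Elmo1 (349.9 in GFP-positive cells and 467.4 in GFP-negative cells, -0.42 log2). The second-brightest probe set of Tln1 went the other way, at 0.79 log2, and Elmo1 was at 0.04 log2 with its probe sets averaged. The Gi subunit gene Gnai2 had signals of 1040 in GFP-positive cells and 1067 in GFP-negative cells, a difference that turned positive after quantile normalization.

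Genes that end receptor signals were split, with 6 of 12 above the floor higher and 6 lower in GFP-positive cells and a median of -0.02 log2. Grk5, counted as higher, and Rgs11, counted as lower, were above the floor on 1 array only, so passing it fixed their direction. Rgs1, which blunts chemokine responses by speeding GTP hydrolysis on Gi, had 5312 in GFP-positive cells and 2950.5 in GFP-negative cells, 1.80-fold higher. Rgs3, another regulator of this kind, was the 1 member past 2-fold (84.3 in GFP-positive cells and 257.7 in GFP-negative cells, 3.06-fold lower), but another of its probe sets gave 172.8 in GFP-positive cells and 124.9 in GFP-negative cells, and after quantile normalization, which made that probe set the brighter, the gene was at 0.43 log2. Rgs16 had 67.5 in GFP-positive cells and 98.4 in GFP-negative cells (-0.54 log2), and Rgs2 had 768.8 in GFP-positive cells and 542.1 in GFP-negative cells (0.50 log2) with further probe sets in the other direction, at -0.33 and -0.35 log2.

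Of 18 adhesion and homing genes above the floor, 10 were higher and 8 lower in GFP-positive cells, with a median of 0.02 log2. Itga2 and Fut4, counted as higher, and Itga1, counted as lower, were above it on 1 array only, so passing it fixed their direction. Gpr15, a receptor that directs T cells to the large intestine, was the 1 past 2-fold (130.7 in GFP-positive cells and 62.7 in GFP-negative cells, 2.08-fold higher). It lay just above the floor in GFP-negative cells and was at 0.97 log2 after quantile normalization. Itgae, which encodes the CD103 integrin chain that binds E-cadherin on epithelium, had 1218 in GFP-positive cells and 633.8 in GFP-negative cells, 1.92-fold higher, and its other probe set had 1092 in GFP-positive cells and 641.3 in GFP-negative cells. Fut7, which makes selectin ligands, had 162.9 in GFP-positive cells and 265.5 in GFP-negative cells, 1.63-fold lower. The collagen receptor chain gene Itga2 was above the floor in GFP-positive cells only (98.7 in GFP-positive cells and 13.7 in GFP-negative cells).

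Transcription factors tied to helper subsets that use these receptors had a median of -0.24 log2. In GFP-positive cells 11 of the 15 had a lower signal, beside 51.2% of all genes. The count was the same after quantile normalization. With probe sets averaged, 8 of 13 were lower and 5 higher, with a median of -0.14 log2. Maf, Rora, Stat3 and Ahr changed sign under another choice of probe sets. Foxp3, the check of the labels, had 504.4 in GFP-positive cells and 173.2 in GFP-negative cells, 2.91-fold higher, in the direction of the sort, with both signals above the floor. Eomes, a T-box factor of cytotoxic and interferon-gamma-producing cells, had 80.4 in GFP-positive cells and 288.1 in GFP-negative cells, 3.58-fold lower. Bcl6, the follicular helper factor, had 203.3 in GFP-positive cells and 396.5 in GFP-negative cells (1.95-fold lower), and Stat4, which signals from the IL-12 receptor, had 1137 in GFP-positive cells and 2016 in GFP-negative cells (1.77-fold lower). Irf4, which the rule for named genes does not reach, had 488.5 in GFP-positive cells and 279.5 in GFP-negative cells (0.81 log2). Tbx21, which encodes T-bet, a factor known to activate Cxcr3 in Th1 cells, had 55.7 in GFP-positive cells and 69.6 in GFP-negative cells, at or near the floor, and was also named after its values were seen. Tbx21 was above the floor in GFP-negative cells only, so passing it fixed its direction.

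**Figure D3:**
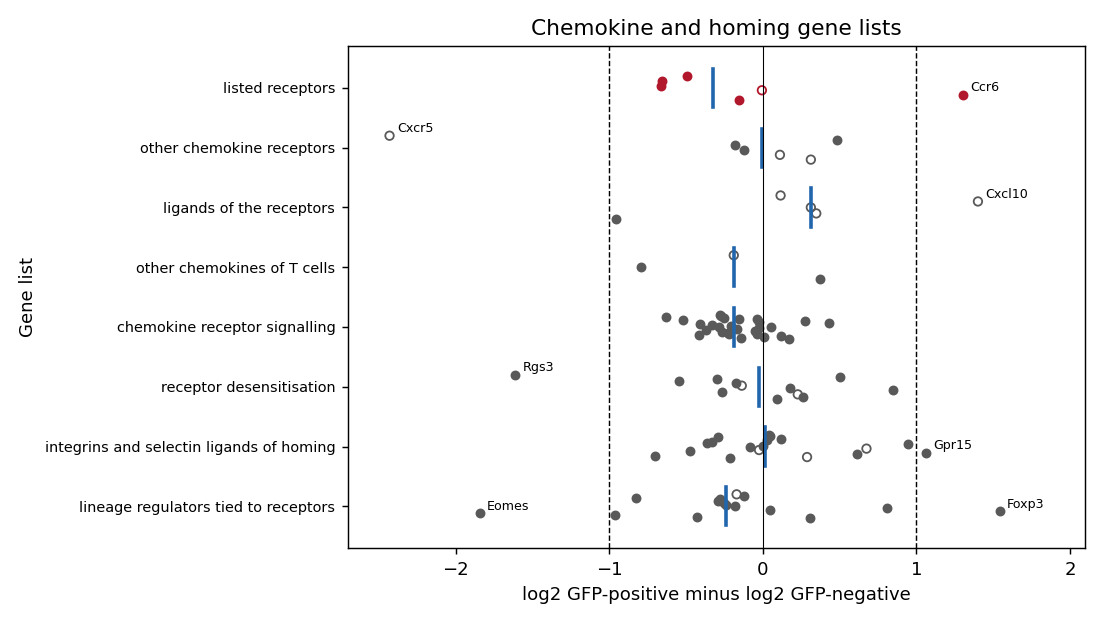
The log2 GFP-positive minus GFP-negative difference of each gene above the floor (horizontal axis), by gene list (rows), with open circles for genes above the floor on 1 array only, whose differences are lower bounds, a bar at each list's median and dashed lines at 2-fold. The listed receptors spread from -0.66 to 1.30, and the genes past 2-fold in the 8 lists drawn, which leave out the cell type markers, are Ccr6, Cxcr5, Cxcl10, Rgs3, Gpr15, Eomes and Foxp3.

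Both arrays showed T cell markers, with all 8 measured above the floor. Cd4 had 256.5 in GFP-positive cells and 415.1 in GFP-negative cells (-0.69 log2) and Cd3e 540.9 in GFP-positive cells and 862.2 in GFP-negative cells (-0.67 log2), differences of the size of that of Cxcr3, while Cd3d had 4619 in GFP-positive cells and 4677 in GFP-negative cells. Cd28 (-0.61 log2) and Thy1 (-0.23 log2) were lower as well, whereas Cd2 and Cd5 were at 0.16 and 0.20 log2. The 5 probe sets of Cd8a were below the floor on both arrays. The CD8 T and NK cell marker Nkg7 had 723.7 in GFP-positive cells and 1222 in GFP-negative cells, Cd8b1 had 100.4 in GFP-positive cells and 115.2 in GFP-negative cells, and Klrd1 had 148.5 in GFP-positive cells and 103.5 in GFP-negative cells. The summed signal of 6 such markers was 1040 in GFP-positive cells and 1509 in GFP-negative cells. Most of this sum came from Nkg7, so its direction is that of Nkg7, and Klrd1 went the other way. Cxcr3 and Cxcr6 were also lower in GFP-positive cells, and their relation to these markers was not tested. The 3′ to 5′ signal ratio of Actb, a measure that increases with RNA degradation, was 5.30 for GFP-positive cells and 3.57 for GFP-negative cells. That of Gapdh was 9.27 for GFP-positive cells and 6.24 for GFP-negative cells. The part of RNA quality in the receptor differences was not tested.

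**Figure D4:**
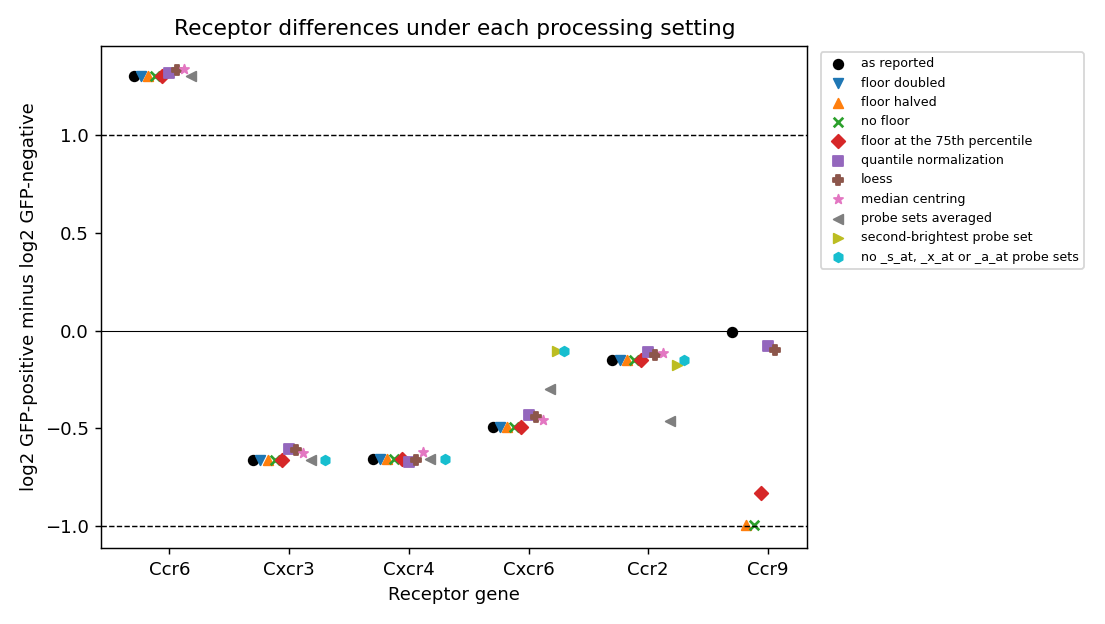
The log2 GFP-positive minus GFP-negative difference (vertical axis) of the 6 receptors above the floor (horizontal axis) as reported and under each of 10 other processing settings, with dashed lines at 2-fold. Ccr6 stays between 1.30 and 1.34 in the 8 alternatives that give it a value, Cxcr3, Cxcr4, Cxcr6 and Ccr2 stay below 0 in every alternative that gives them a value, and Ccr9 moves with the floor. For Ccr6, Cxcr3 and Cxcr4, only the settings that renormalise the arrays could change the value.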

How the data were processed

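Per the submitters' processing notes, the authors summarised each array with MAS5, and they deposited 1 linear intensity per probe set and array. For the software version, detection calls and genome build, the sources used here give nothing. The 2% trimmed mean was 150.0 on both deposited columns, and no further scaling was applied. Groups were taken from the array titles. Of 45101 probe sets, 34958 had 1 gene symbol in the platform annotation, 932 several and 9211 none, and only the first kind, without control probe sets, was used. Updating symbols through gene identifiers altered 0. The floor came from 61 of 70 listed tissue-restricted genes, 12 of which still passed it on at least 1 array.

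The receptors, gene lists and motifs were chosen with earlier results of these data known. One gene, Gps1, was taken off the list of genes that end receptor signals because it is not such a gene, after its values were seen. The named genes are all listed receptors, other chemokine receptors above the floor, Foxp3, Cd4, Cd3e and Cd8a, and from each other list up to 4 genes with the largest difference and those past 2-fold. Genes below the floor and a few others are given for context and were chosen after their values were seen. Python 3.11.15, pandas 2.3.3 and statsmodels 0.14.6 were used, and the steps were tested on simulated data. Precision is limited by the 2 arrays.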

Additional observations from a re-analysis of the deposited data

How the results depend on the processing

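With 1 array per group, no spread between replicates is known. Across 10 alternatives, the Ccr6 difference ran from 1.30 to 1.34 log2 in the 8 that gave it a value, Cxcr3 from -0.66 to -0.60, Cxcr4 from -0.67 to -0.62, Cxcr6 from -0.49 to -0.11 and Ccr2 from -0.46 to -0.11, each with its direction kept. The brightest probe sets of these receptors lie above every floor tried on both arrays, so the floor settings could not change them. Ccr6, Cxcr3 and Cxcr4 have 1 probe set each, so only renormalising the arrays could change their values. The median over receptors above the floor ran from -0.49 to -0.14. The count of receptors at least 2-fold higher, 1 as reported, was 3 with no floor, because Ccr8 and Ccr10 then counted, and 0 both with the second-brightest probe set and without _s_at, _x_at or _a_at probe sets, because the only probe set of Ccr6 is an _a_at one and left it without a value in both. The count at least 2-fold lower was 0 in all 10. Receptor probe sets above the floor numbered 13 in GFP-positive cells with the floor halved, and 17 in each population with no floor. Over the other chemokine, signalling, homing and lineage gene lists together, leaving out the cell type markers, 3 genes were at least 2-fold higher and 3 at least 2-fold lower as reported. The higher count was 1 with the floor doubled, 6 with it halved, 13 with no floor, 5 with the floor at the 75th percentile and 0 with the second-brightest probe set, and the lower count was 6 with the floor halved, 11 with no floor and 1 with the second-brightest probe set. Over all genes, 181 higher and 179 lower became 57 higher and 70 lower with the floor doubled, 908 higher and 605 lower with it halved, 727 higher and 445 lower at the 75th percentile, and 3305 higher and 2419 lower with no floor. The Cxcr5 bound ran from -3.48 to -1.43. No paired analysis was possible because each group holds 1 array.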
